A study of Capra hircus with 9 samples.

Results

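The genes described here are 10 genes that mark macrophages and related myeloid cells, namely CD68, CD163, CSF1R, MRC1, MSR1, CD14, TYROBP, AIF1, SPI1 and GPNMB. They were picked by symbol in a table of 23499 goat genes, and 9 of the 10 have a row there. CD163 has no row under that symbol and was not analysed here. All 9 genes passed a filter on low values, 0.5 FPKM or more in 3 or more libraries, which 14701 genes passed in all.

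Macrophages are phagocytes that reside in most tissues and are also replenished from blood monocytes. In the mammary gland they lie in the stroma and next to the epithelium, take part in duct and alveolus growth, and engulf dead epithelial cells, milk fat and debris when milk removal stops. Growth factor signals through the receptor CSF1R keep macrophages alive, the transcription factor PU.1 (the product of SPI1) turns on many of their characteristic genes, and scavenger receptors on their surface bind modified lipids, glycoproteins and bacterial products for uptake into lysosomes.

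Whole mammary gland tissue came from 9 healthy Laoshan dairy goats of parity 3 with a mean age of 4 years, kept on one farm, with 1 library per goat. Late lactation (LL) was sampled at 240 days postpartum, the dry period (DP) at 300 days postpartum and late gestation (LG) at 140 days after mating, in 3 goats each, and the labels name no treatment or transgene. Tissue was taken at slaughter from different goats at each stage, so no animal was followed through time. The comparisons ask how gene activity differs between the end of milk production, the rest that follows it and the last weeks before the next birth.

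The deposited values, for which the table gives neither a unit nor a genome build, were taken as FPKM, which counts sequenced fragments relative to gene length and library size and so allows levels of different genes to be compared. Libraries of the stages summed to unequal FPKM, from 940676 to 1157015 for LL, 601250.2 to 616268 for DP and 733277 to 768157 for LG, and were scaled to each other by median-ratio factors. Values called scaled FPKM are divided by these factors, and means are given ± SD over the 3 goats of a stage. Fold changes are differences of log2(scaled FPKM + 1) from limma over all 9 libraries, a scale on which changes of weakly expressed genes come out too small. A gene was called when its Benjamini-Hochberg adjusted p, over all genes, was under 0.05 and its log2 fold change was 1 or more in size. The number of fragments behind each value is unknown, so no counting error was attached to it. All 6 markers of luminal epithelium, the milk-secreting cells, were detected, with summed scaled FPKM between 819 and 1106 in LL libraries, 269 and 522 in DP libraries and 733 and 891 in LG libraries. The differences between these sums largely follow 1 of the markers, ELF5, with scaled means of 596 in LL, 32.1 in DP and 452 in LG.

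DP was the stage with the highest mean of each of the 9 genes, and LG lay below DP for every one. For GPNMB the DP mean exceeded the LL mean through DP replicate 2 alone, without which it was 6.22 scaled FPKM against 8.38 in LL. Of the 9 genes, 8 were called lower in LG than in DP and 0 higher, where 6.88% of all genes tested were called lower. Their median log2 fold change in that comparison was -1.53 against 0.0083 for all genes. Between DP and LL, 4 genes were called higher in DP and 0 lower, where 13.8% of all genes were called higher. The median there was 0.93 against 0.0041. The 4 include SPI1, which had no LL library at 0.5 FPKM and passed the filter through DP and LG. Among all genes, 1409 of the 2029 called higher likewise had no LL library at 0.5 FPKM. Between LG and LL, 4 genes were called lower in LG and 0 higher, where 6.61% of all genes were called lower, with a median of -0.54 against 0.019. After scaling, all 9 genes had every LG library below every DP library (22.8% of all genes), 4 had every DP library above every LL library (32.5% of all genes), and for LG and LL 5 lay lower (30.2% of all genes) and 1 higher (31.0% of all genes) without overlap. SPI1, with LL low by the filter, is among the 4 genes with DP above LL and is the 1 gene higher in LG than in LL. Each stage enters 2 of the 3 comparisons, so these counts are not independent of each other.

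The scaling bears on these counts. Unscaled, the median of all genes moved to 1.09 between DP and LL, to 0.93 between LG and LL and to -0.18 between LG and DP on the log2 scale. All 9 genes were then called higher in DP than in LL, and between LG and LL the 4 calls of CD68, MSR1, CD14 and GPNMB were lost (log2 fold changes of -0.18, -0.12, -0.19 and -2.02) while SPI1 was called higher (1.09). In tissue libraries, fewer cells of a type and less RNA of these genes per cell cannot be told apart. CD68, MRC1, CD14, TYROBP, AIF1 and SPI1 also stand in immune gene terms that the study selected on a larger set of libraries including these 9, so their direction is not independent evidence.

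**Figure D1:**
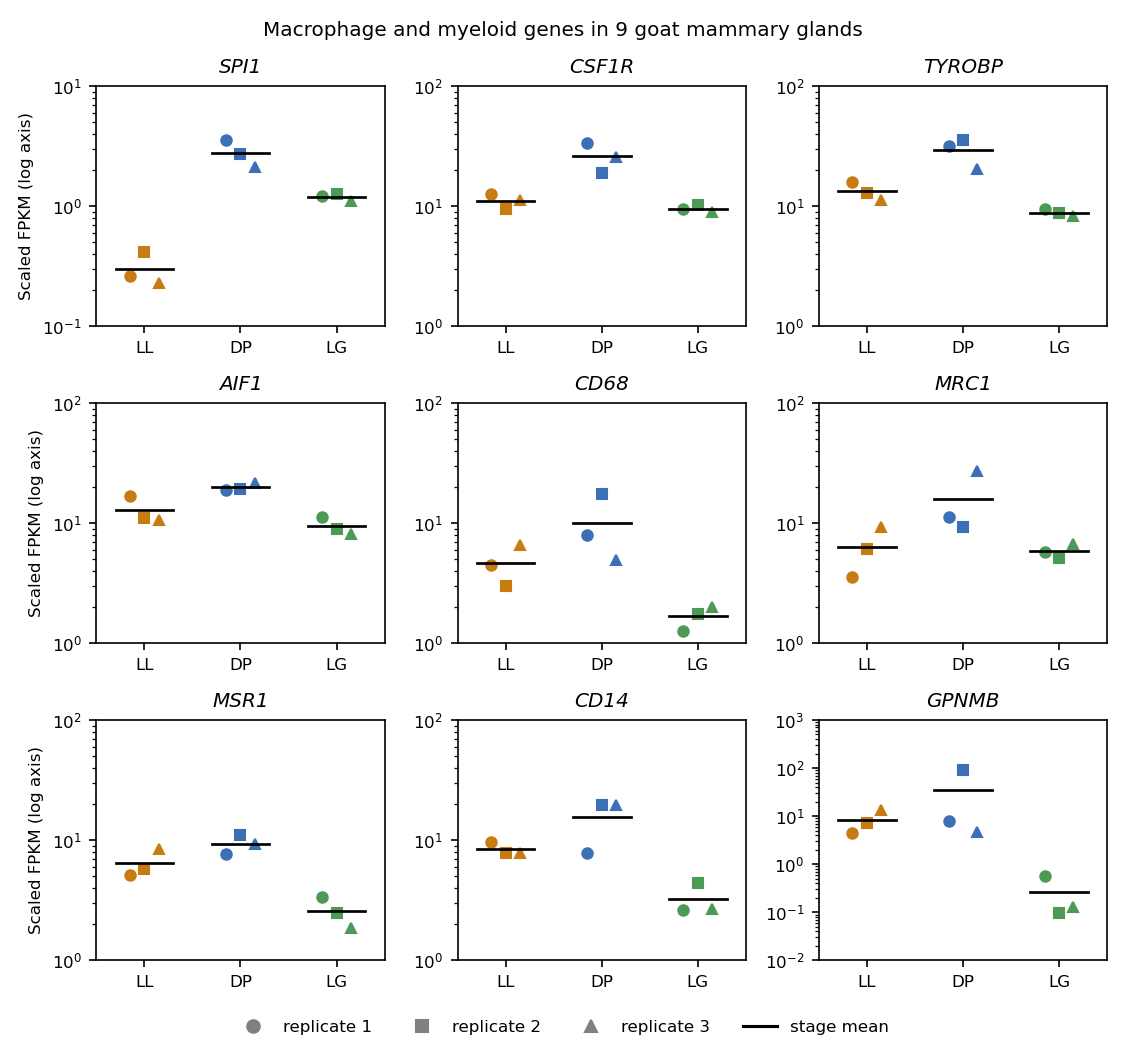
Scaled FPKM (log axis) of the 9 macrophage and myeloid genes in each of the 9 libraries, by stage, with the mark shape giving the replicate number and the black line the stage mean. Every gene has its highest stage mean in DP, SPI1 has its lowest in LL (0.303), and GPNMB spans 4.60 to 90.1 within DP and 0.0973 to 0.559 in LG.

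SPI1 (gene ID 102186416, chromosome 15, 5771038 to 5787874) encodes PU.1, the transcription factor that myeloid precursors need to become macrophages. The LL libraries, replicates 1 to 3, read 0.13, 0.23 and 0.14 FPKM, the DP libraries 5.45, 3.89 and 3.04 and the LG libraries 1.46, 1.55 and 1.45. The stages did not overlap, with LL lowest and DP highest. Scaled means for LL, DP and LG were 0.303 ± 0.0990, 2.79 ± 0.732 and 1.19 ± 0.0798 (n = 3), so DP was 9.22 times and LG 3.94 times LL. SPI1 was called higher in DP than in LL with a log2 fold change of 1.53 (standard error 0.15, limma adjusted p = 3.7e-05). LG differed from LL by 0.75 (limma adjusted p = 0.00274) and from DP by -0.77 (limma adjusted p = 0.00369), both smaller than a call needs. With a pseudocount of 0.1 these became 1.71 and -1.13, and both were then called. No LL library reached 0.5 FPKM, so SPI1 passed the filter through DP and LG, and LL had to be its low stage before scaling. It was the 1 gene of the 9 with a higher scaled mean in LG than in LL.

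CSF1R (gene ID 100861303, chromosome 7, 49005729 to 49037330) encodes the receptor tyrosine kinase through which the cytokines CSF1 and IL-34 sustain macrophages. Its FPKM were 6.25, 5.23 and 6.87 in the LL libraries, 51.68, 27.22 and 36.73 in those of DP and 11.34, 12.62 and 11.73 in those of LG. After scaling, DP lay above LL and LG without overlap, while LL and LG overlapped. Over LL, DP and LG the scaled means were 11.1 ± 1.56, 26.1 ± 7.48 and 9.54 ± 0.655 (n = 3). CSF1R was called higher in DP than in LL (log2 fold change 1.13, standard error 0.20, limma adjusted p = 0.00127) and lower in LG than in DP (-1.33, limma adjusted p = 0.00105). LG differed from LL by -0.19 (limma adjusted p = 0.444), with a 95% confidence interval of -0.64 to 0.25. Without DP replicate 1, its highest library, the difference of DP from LL was 0.93 and was not called. The gene overlaps HMGXB3, on the opposite strand, by 5607 bases, and the library kit does not mark strand, so reads in the overlap cannot be assigned to one of them.

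TYROBP (gene ID 102175151, chromosome 18, 47435988 to 47438890) encodes DAP12, the membrane adaptor whose ITAM motif passes on signals of TREM2 and other receptors of myeloid and natural killer cells. The LL libraries held 7.96, 7.08 and 6.80 FPKM, the DP libraries 48.20, 51.57 and 29.57 and the LG libraries 11.25, 10.89 and 10.81. After scaling the stages were separate, in the order DP, LL, LG from high to low. Scaled means in the order LL, DP, LG were 13.3 ± 2.43, 29.3 ± 7.86 and 8.82 ± 0.584 (n = 3). TYROBP was called higher in DP than in LL (log2 fold change 1.06, standard error 0.21, limma adjusted p = 0.00226) and lower in LG than in DP (-1.59, limma adjusted p = 0.000497). The first of these calls lies close to the threshold of 1 and was lost without LL replicate 3 (0.95), DP replicate 1 (0.99) or DP replicate 2 (0.90). LG differed from LL by -0.54 (limma adjusted p = 0.0559). The gene HCST, which encodes the related adaptor DAP10, lies 119 bases from TYROBP on the opposite strand.

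AIF1 (gene ID 100860979, chromosome 23, 22277461 to 22279848) encodes IBA1, an actin-bundling protein used as a stain for macrophages and microglia. It read 8.39, 6.17 and 6.47 FPKM in the LL goats, 29.06, 27.84 and 31.25 in the DP goats and 13.36, 11.10 and 10.67 in the LG goats. DP libraries were the highest and close to each other, within 1.14 times after scaling, and LL and LG overlapped. Scaled means for LL, DP and LG were 12.9 ± 3.44, 20.0 ± 1.48 and 9.42 ± 1.56 (n = 3). AIF1 was called lower in LG than in DP (log2 fold change -1.02, standard error 0.19, limma adjusted p = 0.00275), and came under the threshold without DP replicate 3, LG replicate 2 or LG replicate 3 (-0.96, -0.99 and -0.93). DP differed from LL by 0.62 (limma adjusted p = 0.0179), too little for a call, and LG from LL by -0.40 (limma adjusted p = 0.102).

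CD68 (gene ID 102189793, chromosome 19, 27051048 to 27053487) encodes a heavily glycosylated protein of late endosomes and lysosomes and is a common stain for tissue macrophages. It was at 2.23, 1.67 and 3.96 FPKM in the LL libraries, 12.26, 25.04 and 7.07 in the DP libraries and 1.53, 2.15 and 2.66 in the LG libraries. After scaling the LG libraries lay below all others, whereas DP replicate 3 (4.91) was within the range of LL. Over LL, DP and LG the scaled means were 4.68 ± 1.77, 10.1 ± 6.48 and 1.68 ± 0.377 (n = 3), so LG stood at 0.167 times DP. CD68 was called lower in LG than in DP (log2 fold change -1.90, standard error 0.37, limma adjusted p = 0.00389). It was also called lower in LG than in LL (-1.05, limma adjusted p = 0.0400), but the limma adjusted p lay between 0.0643 and 0.136 when LL replicate 1 or 3 or any LG library was left out. DP differed from LL by 0.85 (limma adjusted p = 0.0740), with a 95% confidence interval of 0.02 to 1.69, and without DP replicate 3 by 1.23 (limma adjusted p = 0.0121), which was called. CD68 lies 106 bases from EIF4A1, a translation factor gene on the same strand.

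**Figure D2:**
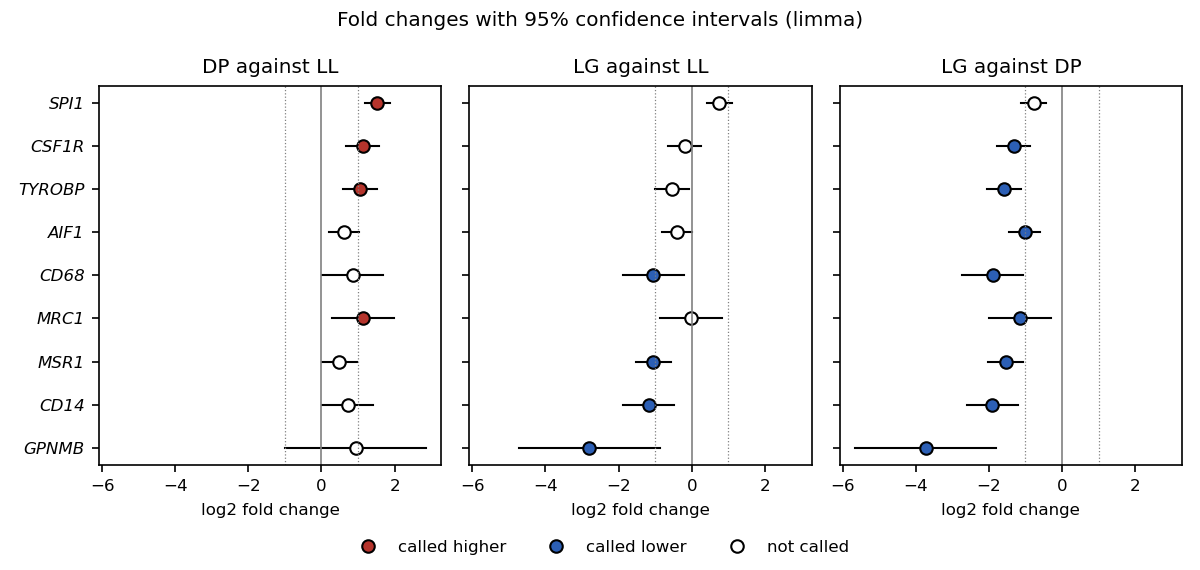
log2 fold change (horizontal axis, log2(scaled FPKM + 1) scale) of each gene in the 3 comparisons, with 95% confidence intervals from limma; red marks genes called higher, blue genes called lower, white genes not called, and dotted lines stand at -1 and 1. In LG against DP all 9 values lie below 0, from -3.73 for GPNMB to -0.77 for SPI1, and in LG against LL only SPI1 lies above 0.

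MSR1 (gene ID 102171570, chromosome 27, 24578374 to 24656345) encodes the class A scavenger receptor that takes up modified low-density lipoprotein. It had 2.55, 3.16 and 5.15 FPKM in the LL libraries, 11.67, 15.90 and 13.28 in those of DP and 4.04, 3.08 and 2.44 in those of LG. After scaling LG was lowest, and DP replicate 1 (7.64) was within the range of LL. Scaled means for LL, DP and LG were 6.45 ± 1.81, 9.30 ± 1.70 and 2.58 ± 0.761 (n = 3). MSR1 was called lower in LG than in DP (log2 fold change -1.53, standard error 0.21, limma adjusted p = 0.000667) and than in LL (-1.05, limma adjusted p = 0.00302), the latter lost without LL replicate 3 (-0.86) or LG replicate 3 (-0.90). DP differed from LL by 0.48 (limma adjusted p = 0.0785).

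MRC1 (gene ID 102181218, chromosome 13, 31591582 to 31703968) encodes the mannose receptor CD206, an endocytic lectin that is abundant on resident and tissue-repair macrophages. The LL libraries had 1.79, 3.36 and 5.59 FPKM, the DP libraries 17.34, 13.29 and 38.80 and the LG libraries 6.84, 6.37 and 8.79. DP replicate 3 was far above the other DP libraries, DP replicate 2 (9.22) was just under LL replicate 3 (9.23) after scaling, and LG lay within the range of LL. Scaled means in the order LL, DP, LG were 6.30 ± 2.82, 15.8 ± 9.69 and 5.86 ± 0.773 (n = 3). MRC1 was called higher in DP than in LL (log2 fold change 1.14, standard error 0.38, limma adjusted p = 0.0276) and lower in LG than in DP (-1.16, limma adjusted p = 0.0391). Without DP replicate 3 these became 0.70 (limma adjusted p = 0.0664) and -0.72 (limma adjusted p = 0.0894), and neither was called. Both calls were also lost without LL replicate 2 (limma adjusted p = 0.0635 and 0.0554), the first without LL replicate 1 (limma adjusted p = 0.0999) and the second without any one of the LG libraries (limma adjusted p = 0.0695 to 0.0992). LG differed from LL by -0.02, with a 95% confidence interval of -0.87 to 0.82.

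CD14 (gene ID 102177056, chromosome 7, 58731680 to 58735123) encodes the co-receptor that hands bacterial lipopolysaccharide to TLR4 and is carried by monocytes, macrophages and neutrophils. It read 4.84, 4.33 and 4.78 FPKM in the LL goats, 12.06, 28.15 and 28.48 in the DP goats and 3.15, 5.47 and 3.50 in the LG goats. Scaling placed DP replicate 1 (7.89) within LL (7.83 to 9.72), DP replicates 2 and 3 at 19.5 and 19.8, and all LG libraries lower at 2.63 to 4.43. Over LL, DP and LG the scaled means were 8.48 ± 1.08, 15.7 ± 6.79 and 3.24 ± 1.03 (n = 3). CD14 was called lower in LG than in DP (log2 fold change -1.90, standard error 0.31, limma adjusted p = 0.00161) and than in LL (-1.18, limma adjusted p = 0.0111). DP differed from LL by 0.72 (limma adjusted p = 0.0714), and without DP replicate 1 by 1.13 (limma adjusted p = 0.00180), which was called.

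GPNMB (gene ID 102173634, chromosome 4, 88685348 to 88713341) encodes a transmembrane glycoprotein of lysosome-rich cells, prominent in lipid-laden macrophages and osteoclasts and also made by pigment cells. The LL libraries were at 2.19, 4.06 and 8.12 FPKM, the DP libraries at 11.99, 129.93 and 6.62 and the LG libraries at 0.67, 0.12 and 0.17. Every LG library was below all others, DP replicate 2 was far above all others, and DP replicates 1 and 3 lay within the scaled range of LL. The highest and lowest DP library differed by 19.6 times, against 3.54 times or less for the other 8 genes. Scaled means for LL, DP and LG were 8.38 ± 4.60, 34.2 ± 48.5 and 0.262 ± 0.258 (n = 3), so LG was at 0.0313 times LL. GPNMB was called lower in LG than in DP (log2 fold change -3.73, standard error 0.86, limma adjusted p = 0.00871) and than in LL (-2.80, limma adjusted p = 0.0218), the latter lost without LL replicate 2 or 3 or LG replicate 2 or 3 (limma adjusted p = 0.0528 to 0.0762). DP differed from LL by 0.93 (limma adjusted p = 0.370), with a 95% confidence interval of -0.99 to 2.86, and by -0.30 without DP replicate 2. Since 1 of 3 LG libraries reached 0.5 FPKM, GPNMB passed the filter through LL and DP.

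The order of the genes by scaled FPKM changed with the stage. In LL, TYROBP (13.3), AIF1 (12.9), CSF1R (11.1), CD14 (8.48), GPNMB (8.38), MSR1 (6.45), MRC1 (6.30) and CD68 (4.68) followed each other with overlap between neighbours, and every library of SPI1 (0.303) lay below those of the other genes. In DP, GPNMB (34.2), TYROBP (29.3), CSF1R (26.1), AIF1 (20.0), MRC1 (15.8), CD14 (15.7), CD68 (10.1) and MSR1 (9.30) again overlapped from neighbour to neighbour, with SPI1 (2.79) below all of them. The first place of GPNMB rests on DP replicate 2 (90.1), without which its DP mean was 6.22. In LG, CSF1R (9.54), AIF1 (9.42) and TYROBP (8.82) overlapped at the top, MRC1 (5.86) lay apart below them, CD14 (3.24), MSR1 (2.58) and CD68 (1.68) overlapped from neighbour to neighbour, and SPI1 (1.19) and GPNMB (0.262) were each separate at the bottom. SPI1 stood above GPNMB in every LG library and below it in every LL and DP library.

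The DP libraries did not rank alike for all genes. DP replicate 2 was highest for 4 genes (CD68, MSR1, TYROBP and GPNMB), DP replicate 3 for 3 (MRC1, CD14 and AIF1) and DP replicate 1 for 2 (CSF1R and SPI1). PTPRC, which encodes the general leukocyte antigen CD45, had scaled FPKM of 36.7, 19.1 and 13.2 in DP replicates 1, 2 and 3 and was thus highest in the library in which CD14 was lowest. The highest-to-lowest ratio among LG libraries was 1.14 to 1.82 for 8 genes and 5.75 for GPNMB, larger than among DP libraries for MSR1 (1.82 and 1.44) and AIF1 (1.37 and 1.14) and smaller for the other 7 genes.

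A ratio of genes within a library does not depend on how libraries are scaled to each other, so each gene was set against CD68 as a log2 ratio. SPI1 relative to CD68 averaged -3.93 ± 0.992 over LL, -1.69 ± 0.862 over DP and -0.47 ± 0.404 over LG (n = 3), with no overlap between stages. GPNMB relative to CD68 averaged 0.76 ± 0.695 over LL, 0.75 ± 1.41 over DP and -3.11 ± 1.66 over LG (n = 3), and all LG libraries lay below the others. CSF1R, MRC1 and AIF1 relative to CD68 were higher in every LG library than in any LL library, by 1.22, 1.42 and 1.00 on the log2 scale, while the ratios of CD14 (0.0070), MSR1 (0.10) and TYROBP (0.85) overlapped between these stages. Between DP and LL 7 of 8 ratios overlapped. Two-sided exact permutation tests of 3 against 3 libraries cannot give a p below 0.1, and the smallest adjusted p over the 24 exact tests was 0.300, so none passed. With a pseudocount of 1 the differences of SPI1 moved to 0.10 between DP and LL and to 1.28 between LG and LL, and those of GPNMB to -1.84 between LG and LL and to -1.98 between LG and DP.

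**Figure D3:**
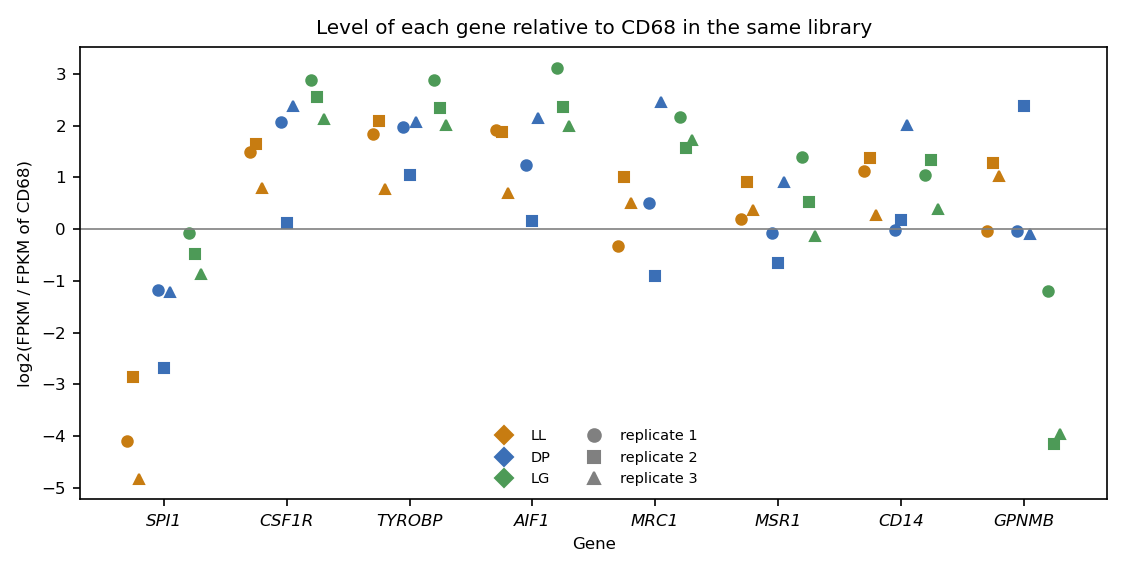
log2 ratio of the FPKM of each gene to that of CD68 in the same library (vertical axis), with colour giving the stage and mark shape the replicate. SPI1 lies from -4.82 to -2.86 (LL), -2.69 to -1.17 (DP) and -0.88 to -0.07 (LG), and GPNMB lies between -4.16 and -1.19 in LG, below all LL and DP libraries.

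The genes were also set against PTPRC, a choice made after the values were seen. Of the 9 log2 ratios to PTPRC, 7 were lower in every LG library than in any LL library, 1 was higher (SPI1, by 1.64) and 1 overlapped (MRC1, -0.39). The 7 differences ran from -0.60 for CSF1R over -0.97 for TYROBP, -1.81 for CD14 and -1.82 for CD68 to -5.69 for GPNMB. Between DP and LL 8 of the 9 differences were negative, from -0.45 for MRC1 to -1.17 for MSR1, which was lower without overlap, SPI1 was higher without overlap (1.51) and the other 7 overlapped. Between LG and DP 8 of the 9 overlapped, GPNMB being the exception at -4.94. The ratios of SPI1 in LL rest on 0.13 to 0.23 FPKM, and LL was its low stage by the filter. No pseudocount was tried for the ratios to PTPRC. The smallest adjusted p over the 27 two-sided exact permutation tests was 0.245, so none passed. PTPRC itself was called higher in DP than in LL (1.58, limma adjusted p = 0.00255) and lower in LG than in DP (-1.24, limma adjusted p = 0.0144), the latter lost without DP replicate 1 (-0.85) or LG replicate 3 (limma adjusted p = 0.0542). LG differed from LL by 0.34 (limma adjusted p = 0.398), and without scaling by 1.34 (limma adjusted p = 0.00359), which was called.

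Patterns were compared over the 9 libraries by Pearson's r of log2(scaled FPKM + 1), given as a description because the libraries fall into 3 stages. CD68 and GPNMB were most like each other (r = 0.936), as were TYROBP and AIF1 (r = 0.897). MSR1 was most like GPNMB (r = 0.890), CD14 most like MSR1 (r = 0.882), CSF1R most like TYROBP (r = 0.865), and SPI1 and MRC1 most like CSF1R (r = 0.753 and 0.710). The least alike pair was SPI1 and GPNMB (r = 0.207). Outside the list, the genes closest to the mean of its standardized values were CTSH (r = 0.994), JADE2 (r = 0.991), CYSRT1 (r = 0.989), MYOF (r = 0.986) and ANTXR2 (r = 0.985). Of these, CYSRT1 was weakly expressed, with scaled means of 1.01 for DP, 0.471 for LL and 0.254 for LG. Only its DP libraries reached 0.5 FPKM. The filter thus admitted CYSRT1 through DP alone, and DP had to be its high stage before scaling. CTSH, which encodes the lysosomal protease cathepsin H, had scaled FPKM from 18.6 to 26.4 in LL libraries, 51.6 to 76.1 in DP libraries and 11.2 to 12.4 in LG libraries.

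Other genes of macrophage function were followed in 9 lists with 84 genes, of which 76 have a row and 71 were tested. Between DP and LL 26 of the 71 were called higher and 4 lower, where 13.8% and 8.79% of all genes were, with a median log2 fold change of 0.71. Between LG and LL 6 were called higher and 13 lower, where 10.7% and 6.61% of all genes were, with a median of -0.22. Between LG and DP 1 was called higher and 26 lower, where 6.37% and 6.88% of all genes were, with a median of -0.81. A gene that passed the filter only through its high stages had to be low in the remaining stage. This held for 11 of the 26 list genes called higher between DP and LL (1409 of 2029 among all genes), 5 of the 6 called higher and 1 of the 13 called lower between LG and LL, and 2 of the 26 called lower between LG and DP, none of whose libraries of the lower stage reached 0.5 FPKM. FCER1G, ACP5 and CHI3L1 in these lists, and the markers KRT5, KRT14 and PECAM1 in those below, follow the values of a neighbouring gene in the table to within 1% of their range and are not separate measurements.

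**Figure D4:**
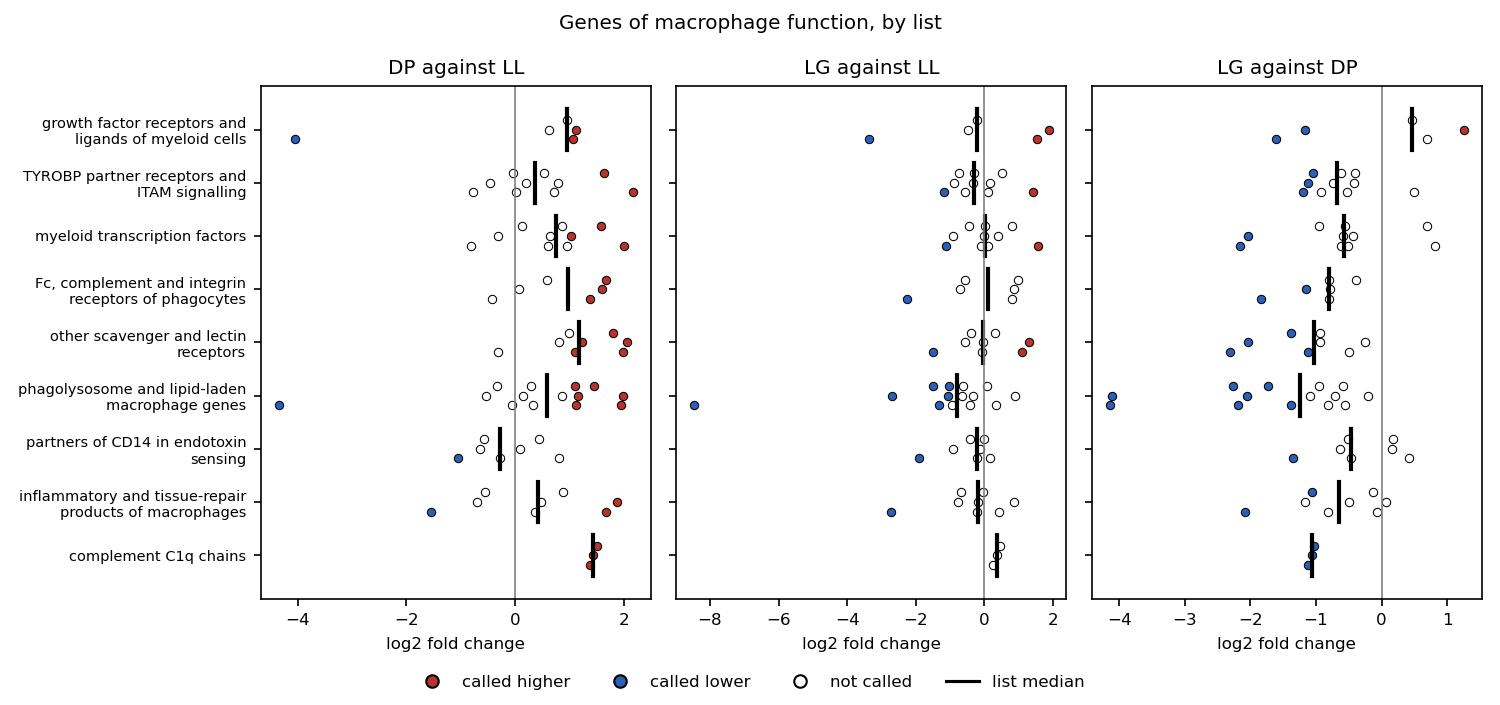
log2 fold change (horizontal axis) of each tested gene in 9 lists of macrophage function, in 3 panels for the 3 comparisons whose horizontal scales differ; red marks genes called higher, blue genes called lower, white genes not called, and the black bar is the list median. In LG against DP the median lies below 0 for every list other than the growth factor receptors and ligands (0.46), and all 3 C1q chains are called in DP against LL and in LG against DP.

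Growth factors and their receptors differed among themselves. CSF1, the main ligand of CSF1R, had scaled means of 3.67 ± 0.226 for LL, 9.11 ± 0.724 for DP and 2.37 ± 0.724 for LG (n = 3). Like CSF1R, it was called higher in DP than in LL (1.11, limma adjusted p = 0.000323) and lower in LG than in DP (-1.60, limma adjusted p = 0.000134). IL34, which encodes the other ligand of CSF1R, was not lower in LG. Its scaled means were 5.995 ± 0.985 for LL, 13.6 ± 1.42 for DP and 20.4 ± 8.57 for LG (n = 3). It was called higher than in LL both in DP (1.07, limma adjusted p = 0.0117) and in LG (1.53, limma adjusted p = 0.00226). LG differed from DP by 0.46 (limma adjusted p = 0.250). CSF2RB, the signalling chain shared by the receptors of GM-CSF, IL-3 and IL-5, had its highest mean in LL (168 scaled FPKM, against 9.21 for DP and 15.5 for LG) and was called lower than in LL both in DP (-4.05, limma adjusted p = 4.35e-07) and in LG (-3.36, limma adjusted p = 2.03e-06). CSF3R, the G-CSF receptor of neutrophils, was highest in LG at 3.64 scaled FPKM and was called higher there than in LL (1.88), where no library reached 0.5 FPKM, and in DP (1.26). Of the 5 genes in this list, 2 were called higher and 1 lower when DP was set against LL, with 2 and 1 for LG against LL and 1 and 2 for LG against DP.

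Among 10 partner receptors and signalling proteins of TYROBP, 2 were called higher and 0 lower for DP against LL, with 1 and 1 for LG against LL and 0 and 3 for LG against DP. HCST (DAP10) was higher than in LL both in DP (2.17, limma adjusted p = 0.000512) and in LG (1.42). However, no LL library reached 0.5 FPKM for HCST or BTK, so before scaling LL had to be the low stage of both. BTK, a kinase of B cells and myeloid cells, was higher in DP than in LL (1.64) and lower in LG than in DP (-1.12), the latter not called without DP replicate 1 (-0.90). TREM2, a lipid-sensing receptor that signals through TYROBP, had scaled means of 2.10 ± 1.01 for LL, 2.12 ± 0.880 for DP and 0.333 ± 0.253 for LG (n = 3). DP differed from LL by 0.020 (limma adjusted p = 0.955). TREM2 was called lower in LG than in DP (-1.21, limma adjusted p = 0.00891) and than in LL (-1.19, limma adjusted p = 0.00641), the latter not without LL replicate 3 (-0.95) or without scaling (-0.61).

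Of 10 myeloid transcription factor genes, 3 were called higher and 0 lower for DP against LL, with 1 and 1 for LG against LL and 0 and 2 for LG against DP. MITF, a regulator of lysosomal and pigment cell genes that include GPNMB, was lower in LG than in DP (-2.16, limma adjusted p = 8.51e-05) and than in LL (-1.12, limma adjusted p = 0.00123), the latter not called without LL replicate 3 or without scaling. IKZF1, which lymphocytes use as well, had its lowest mean in LL (0.624 scaled FPKM, against 5.89 for DP and 3.91 for LG) and was called higher in DP (2.01) and in LG (1.56) than there. Like SPI1, it passed the filter through DP and LG alone, so LL had to be its low stage before scaling.

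In the list of Fc, complement and integrin receptors 6 of 10 genes have a row, and 3 were called higher and 0 lower for DP against LL, with 0 and 1 for LG against LL and 0 and 2 for LG against DP. VSIG4 and C3AR1, both complement receptors of macrophages, were higher in DP than in LL by 1.66 and 1.60 (limma adjusted p = 4.86e-06 and 3.33e-05). Both, and the third gene called there, ITGAX, had no LL library at 0.5 FPKM and entered the test through the other stages. C5AR1, the C5a receptor, was lower in LG than in LL (-2.27) and than in DP (-1.83). ITGB2, the common chain of the leukocyte integrins, was called lower in LG than in DP (-1.15), but not without LG replicate 3 (-0.998).

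Of 8 further scavenger and lectin receptors tested, 5 were called higher and 0 lower for DP against LL, with 2 and 1 for LG against LL and 0 and 4 for LG against DP. TIMD4, a phosphatidylserine receptor of resident macrophages, and the lectin CD209 were higher in DP than in LL by 2.05 and 1.98, with no LL library at 0.5 FPKM, so that LL was low by the filter. CD209 was lower in LG than in DP (-2.04, limma adjusted p = 0.00305). However, only 1 LG library reached 0.5 FPKM for CD209, so it passed the filter through DP, its high stage. LYVE1, which lymphatic endothelium and some resident macrophages carry, was lower in LG than in DP (-2.31, limma adjusted p = 0.000662) and than in LL (-1.50, and -0.62 without scaling, not called), whereas MERTK, a receptor for apoptotic cells, was higher in LG than in LL (1.31), again with no LL library at 0.5 FPKM.

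The complement C1q chains, which macrophages make in most tissues, were called 3 of 3 higher in DP than in LL and 3 of 3 lower in LG than in DP, with 0 called between LG and LL. C1QA had scaled means of 23.2 ± 6.30 for LL, 63.6 ± 11.2 for DP and 29.8 ± 2.04 for LG (n = 3). Its log2 fold change was 1.43 between DP and LL (limma adjusted p = 0.000320) and -1.06 between LG and DP (limma adjusted p = 0.00343), and the latter was -0.92 and not called without DP replicate 3. C1QC was higher in DP than in LL by 1.50, and C1QB lower in LG than in DP by -1.12.

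Of 14 genes of the phagolysosome and of lipid-laden macrophages, 6 were called higher and 1 lower for DP against LL, with 0 and 6 for LG against LL and 0 and 7 for LG against DP. LGALS3, a galectin that binds damaged lysosomes and is abundant in macrophages, had scaled means of 33.3 ± 14.8 for LL, 96.6 ± 48.1 for DP and 3.998 ± 1.05 for LG (n = 3). It was called lower in LG than in DP (-4.15, limma adjusted p = 0.000203) and than in LL (-2.70, limma adjusted p = 0.00107). APOE, a lipid carrier secreted by macrophages, was higher in DP than in LL by 1.98 (limma adjusted p = 0.00865). SPP1, which encodes osteopontin, a protein that mammary epithelium also secretes into milk, was lower by -4.35 between DP and LL, by -8.46 between LG and LL and by -4.11 between LG and DP. Epithelial and stromal cells also express several genes of this list, among them the cathepsins.

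Among 7 tested partners of CD14 in endotoxin sensing, 0 were called higher and 1 lower in each comparison. Between DP and LL this was LY96, which encodes the lipopolysaccharide-binding protein MD-2 (-1.06, limma adjusted p = 0.000885), whose value was 0.27 without scaling and which was not called without LL replicate 1 or 2. LBP, the soluble lipopolysaccharide-binding protein, was lower in LG than in LL (-1.92) and than in DP (-1.34). Of 8 tested inflammatory and repair products 2 were called higher between DP and LL, the cytokines IL6 (1.86) and TGFB1 (1.67), neither with an LL library at 0.5 FPKM, and 1 lower, the neutrophil attractant CXCL8 (-1.54). The call of CXCL8 between DP and LL lay close to the threshold (limma adjusted p = 0.0475), and its scaled libraries overlapped (LL from 3.40, DP up to 5.10). CXCL8 was also lower in LG than in LL (-2.71, limma adjusted p = 0.00439), the 1 call between these stages. Between LG and DP 0 were called higher and 2 lower, IL6 (-2.08), which passed the filter through DP alone, and the IL-1 receptor antagonist gene IL1RN (-1.06), which lost its call without DP replicate 2 or any LG library.

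Markers of other cell types moved between the stages as well, and their part in the results above was not tested. The 7 T cell markers summed to scaled FPKM of 6.62 to 6.96 in LL libraries, 20.5 to 63.1 in DP libraries and 22.4 to 38.1 in LG libraries, with 6 called higher between DP and LL, 4 higher between LG and LL and 1 higher between LG and DP. All 4 of the calls between LG and LL, and 4 of the 6 between DP and LL, were of CD3D, CD3G, CD5 and CD8A. These genes had no LL library at 0.5 FPKM, so LL had to be low for them before scaling. The 7 general leukocyte markers with a row, PTPRC among them, summed to 62.5 to 83.5 for LL, 120 to 243 for DP and 54.2 to 83.9 for LG, with 4 called higher between DP and LL and 4 lower between LG and DP. Neutrophil markers (5 of 6 with a row) summed to 8.13 to 23.5, 9.80 to 37.8 and 2.31 to 7.79 for LL, DP and LG. Of the 4 neutrophil markers tested, S100A9 and CXCR2 were called lower in LG than in LL, where no LG library of CXCR2 reached 0.5 FPKM, and S100A9 was also called lower in LG than in DP. Between LG and LL, S100A9 lay close to the threshold (limma adjusted p = 0.0492), and its scaled libraries overlapped (LL from 3.98, LG up to 4.48). CD14 was called lower in LG than in LL and than in DP, and its relation to these markers was not tested. Fibroblast markers summed to 212 to 324, 502 to 2392 and 521 to 954 for LL, DP and LG, with 5 of 6 called higher between DP and LL, 2 higher between LG and LL and 2 lower between LG and DP.

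**Figure D5:**
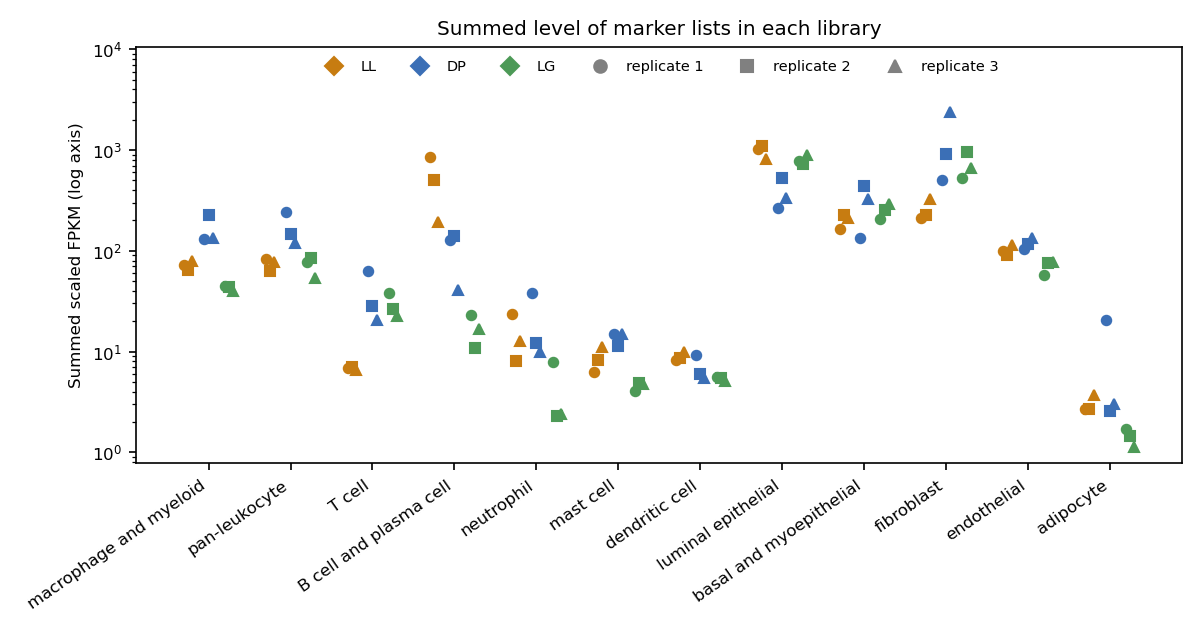
Summed scaled FPKM (log axis) of the macrophage and myeloid genes and of marker lists of other cell types in each library, with colour giving the stage and mark shape the replicate. The macrophage and myeloid sum runs from 63.8 to 79.1 (LL), 131 to 224 (DP) and 39.7 to 44.8 (LG), while the T cell markers have their lowest sums in LL. The highest DP sum, that of DP replicate 2, includes 90.1 from GPNMB alone.

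B cell and plasma cell markers summed to 193 to 846 for LL, 40.4 to 139 for DP and 10.9 to 23.1 for LG. Of the 6, 2 were tested, with 1 called lower between DP and LL and 2 lower in each comparison of LG. Mast cell markers lay at 6.31 to 11.2, 11.3 to 14.98 and 4.02 to 4.91 in the same order of stages (2 of 4 tested, KIT called lower between LG and DP), and dendritic cell markers at 8.24 to 9.93, 5.45 to 9.21 and 5.15 to 5.57 (4 of 5 tested, 0 called, with an adjusted p under 0.05 for 2, 3 and 0 of them in the 3 comparisons). Endothelial markers were at 90.1 to 114, 105 to 135 and 57.8 to 77.9, with 1 of 6 called, TEK, lower between LG and DP. Myoepithelial markers were at 164 to 224, 132 to 442 and 209 to 288, with TP63 called higher than in LL in DP and in LG (no LL library at 0.5 FPKM), and adipocyte markers at 2.71 to 3.72, 2.57 to 20.4 and 1.14 to 1.69 (2 of 4 tested, 0 called), the highest adipocyte sum being in DP replicate 1. Of the luminal markers 1 of 6 was called, ELF5, lower in DP than in LL and higher in LG than in DP. No marker of any list that has a row was at 0 in all 9 libraries.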

How the data were processed

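Mammary gland RNA of 9 goats was sequenced after TruSeq RNA v2 library preparation. The table that the authors deposited holds 1 value per gene and library, which was taken as FPKM because the study quantified FPKM, the values carry decimals and their sums differ. The file names no unit or build. Per the labels, FastQC, Trimmomatic, HISAT2, SAMtools and HTSeq were used, whereas the study's methods name StringTie for quantification of transcripts. The step from transcripts to values per gene is not given in the sources used here. Coordinates are those of the table.

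FPKM were divided by median-ratio factors over 15905 genes with a value in every library, 1 was added and log2 taken. The factors were 0.498 to 0.605 for LL, 1.44 to 1.53 for DP and 1.198 to 1.31 for LG. One limma fit (version 3.58.1, R 4.3.3, mean-variance trend, no covariates) covered every gene with 0.5 FPKM or more in 3 or more of the 9 libraries, with Benjamini-Hochberg adjustment. Ratios were tested by two-sided exact permutation in Python 3.11.15 with scipy 1.17.1. The fit was tested on simulated data of 14613 genes, of which 200 were changed in DP, all by the same size, larger than a call needs. Between DP and LL it called 175 of these 200 and 2 unchanged genes. The simulation covered neither changes near the threshold nor the scaling between libraries. No member tracked any of its 8 neighbouring genes on either side to within 1% of its range (smallest residual 17.8%).

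The members, gene lists and marker lists were chosen with earlier results of these data known. Genes named are all members, PTPRC, the 2 genes of each list with the largest called change in each comparison, the 5 genes most like the members and the most alike member for each. A gene that this rule names is not reported here, and counts of its list include it. Names of IL34 and ITGAX, and of the other markers given as called, were chosen after their values were seen. Alternatives covered scaling, pseudocount, filter, trend, libraries in the fit, a replicate block and each library left out in turn. Alternatives for PTPRC and the other genes named by the rule, and the ratios to PTPRC, were added after the values were seen. None were run for CXCL8 between DP and LL, or for IL34, ITGAX and the other markers.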

Additional observations from a re-analysis of the deposited data

How the results depend on the processing

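Without scaling, 8348 genes were called in DP against LL (7979 higher, 369 lower, against 2029 and 1292 with scaling) and 7043 in LG against LL (6698 higher, 345 lower, against 1572 and 972), with 9 and 1 members called. In LG against LL, CSF1R, MRC1, TYROBP and AIF1 then changed direction to 0.86, 0.94, 0.54 and 0.67, against a shift of all genes of 0.93, and SPI1 was the member called. LY96 in DP against LL became 0.27, and in LG against LL CTSH, JADE2, CYSRT1, MYOF and ANTXR2 became 0.23, 0.046, 0.063, 0.20 and 0.40. Quantile normalization left 2 members called in LG against LL and put CYSRT1 at -0.25 in DP against LL. A pseudocount of 0.1 raised the genes called in LG against LL to 3912, and the adjusted p alone gave 8359, 7383 and 5112 genes in DP against LL, LG against LL and LG against DP. The cause of each shift was not tested.

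With a library left out, 3 to 4 members were called in DP against LL, 1 to 4 in LG against LL (1 without LL replicate 3 or LG replicate 3, 2 without LG replicate 2) and 6 to 8 in LG against DP. GPNMB between DP and LL ranged from -0.30 (without DP replicate 2) to 1.71, and MRC1 between LG and LL from -0.32 to 0.26 (without LL replicate 3, and 0.052 without LG replicate 2). The main fit used no pairing by replicate number, and the goats differed between stages. Correlations of deviations ran from -0.11 to 0.20 for the 9 same-numbered pairs of libraries, with 3 over 0.1. For differently numbered pairs they ran from -0.22 to 0.072. Whether libraries of 1 number share a source of variation was not tested. With a replicate block, 4, 3 and 8 members were called in the 3 comparisons. CD68 in LG against LL (-1.05) then had a limma adjusted p of 0.0556, and no other call of a named gene covered by the alternatives changed. Of the single values of the members, 212 kept direction and side of the threshold with a library left out, 26 lost a call, 2 gained one and 3 changed direction, and over the other alternatives 192 kept both, 11 lost a call, 9 gained one and 4 changed direction. Among the losses, CD68 between LG and LL was not called with quantile normalization or without the filter, MSR1 between LG and LL with quantile normalization, and MRC1 without the filter (both comparisons with DP) or with only the libraries of DP and LL in the fit. With FPKM alone, precision at low values such as those of SPI1 in LL and GPNMB in LG cannot be given.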
